A study of Mus musculus with 12 samples.

Results

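The genes described here encode collagens, laminins and the glycoproteins, proteoglycans, crosslinking enzymes and TGF-beta ligands that accompany them in the extracellular matrix of the liver. They were chosen by symbol: every collagen chain, every laminin chain and 20 further named genes, which gave 53 of the 12284 named genes in the table (24 collagens, 10 laminins and 19 of the 20). Lox, the remaining gene of the 20, was not analysed here. The members were sorted by role, with 8 fibrillar collagens and 16 genes of basement membranes as the main contrast. Expression was measured by sequencing polyadenylated RNA in 12 libraries of mouse liver, 6 of double knockout (DKO) and 6 of wild-type control (WT) livers. All animals carried Acly f/f and Acss2 f/f, the floxed alleles of 2 enzymes that make acetyl-CoA outside mitochondria. DKO mice had received AAV8-TBG-Cre, an adeno-associated virus with Cre recombinase behind a hepatocyte promoter, and WT mice had received AAV8-TBG-GFP, when 6 to 8 weeks old in both groups. The diet of both groups, begun 1 week later and eaten for 6 weeks, was Teklad TD.88137, a Western diet. The labels give neither strain nor sex. Cre and GFP differ between the groups along with the 2 genes, so their effects cannot be told apart from the deletion. The TBG promoter acts in hepatocytes, so other liver cells keep both genes by design.

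Collagens are built from chains with a helical core. Fibrillar collagens, of which types I, III and V are the main ones in liver, assemble into the fibres that portal tracts contain and that scar tissue accumulates, and activated stellate cells and portal fibroblasts are their known sources. Basement membranes are thin sheets of type IV collagen, laminins, nidogen and perlecan; the liver sinusoid has an incomplete one, while vessels and bile ducts have a continuous one. TGF-beta ligands are the classical inducers of fibrillar collagen genes in stellate cells.

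Values were log2 CPM, the logarithm of read counts scaled to library size, so a log2 difference (DKO minus WT throughout) of 1 is a 2-fold higher level. Levels are compared between groups for one gene and not between genes, since CPM as such carries no correction for transcript length and none is stated. A gene was called, and is said to have risen or fallen, at an adjusted p below 0.05 by limma over all 12284 genes; 1.74% of all genes were called in either direction, 0.619% as higher and 1.12% as lower in DKO. On the linear scale a library summed to 905963 to 1087991 CPM; its read depth is unknown and allows no counting interval. The deletion was visible in the targeted genes: Acly in DKO stood at 17.6% of its WT level (limma adjusted p = 0.0165) and Acss2 at 22.0% (adjusted p = 0.00571). DKO 1 had the highest level of both among the DKO libraries: its Acly, at 6.60 log2 CPM, lay above WT 5, the lowest WT library at 6.56, and its Acss2, at 5.74, lay below all WT libraries. All 12 hepatocyte markers were measured in every library. The labels name no sequencing batch and do not tie each library to its own animal, so p-values measure the spread between these libraries, which may be technical.

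Matrix genes stood higher in DKO more often than lower. Of the 53 members, 38 had a higher mean in DKO, against 50.8% of all genes, and the median log2 difference of the members was 0.26, against 0.0041 for all genes. Few of these differences passed the test: 2 members rose, Sparc and Col11a2, and 0 fell by limma. At an unadjusted p below 0.05, 17 members were higher and 4 were lower, where 7.95% and 8.47% of all genes were. The 6 DKO and 6 WT libraries did not overlap for 2 members, Sparc and Dcn, both higher in DKO, where 0.79% of all genes were separated in that direction, and for 0 members lower in DKO, where 1.38% were. The count of members called rested on single libraries: it was 0 when any of DKO 1 to DKO 5, WT 2, WT 5 or WT 6 was left out, 1 without WT 1, WT 3 or WT 4, and 3 without DKO 6.

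**Figure D1:**
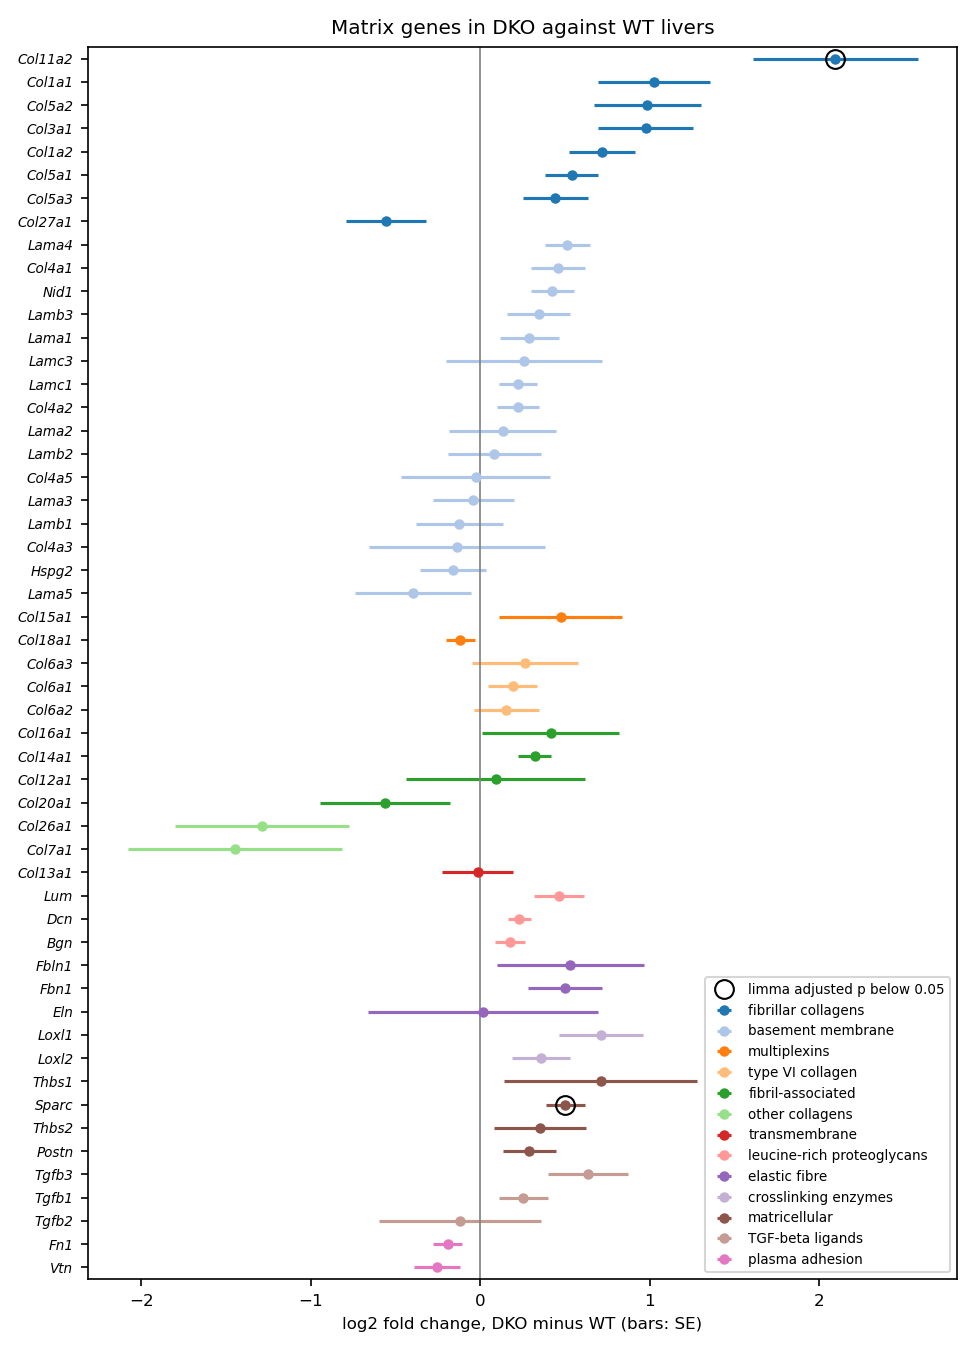
Log2 difference of DKO minus WT (horizontal axis; bars are the SE of limma) for the 53 members, grouped by role from fibrillar collagens at the top to plasma adhesion proteins at the bottom, with a ring around the 2 called genes. Of the fibrillar collagens 7 of 8 lie right of 0, with Col27a1 at -0.56, while basement membrane genes lie between -0.40 and 0.51.

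Fibrillar collagens had the highest median log2 difference among the roles with 3 or more measured genes. Of the 8 measured, 7 were higher in DKO and 1, Col27a1, was lower, with a median log2 difference of 0.85. By limma 1 rose and 0 fell, and all 8 had an unadjusted p below 0.05, where 16.4% of all genes did.

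Col1a1 encodes the chain present in pairs in type I collagen, the main collagen of scars. It had a lowest value of 2.54, a median of 3.85 and a highest of 4.71 log2 CPM in DKO livers, against 2.27, 2.64 and 3.34 in WT livers. In all, 4 DKO libraries lay above the highest WT library and DKO 3 lay below the WT mean, so the groups overlapped. The means were 3.77 ± 0.79 in DKO and 2.75 ± 0.49 log2 CPM in WT (SD, n = 6 each), a log2 difference of 1.02 (SE 0.33, limma adjusted p = 0.130; by 2-sided exact permutation, unadjusted, p = 0.0238).

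Col1a2 encodes the other chain of type I collagen and spanned 3.92 to 5.002 log2 CPM in DKO livers, with a median of 4.49, against 3.35 to 4.09 and a median of 3.82 in WT livers. In all, 5 DKO libraries lay above all WT libraries, and DKO 3 did not. It was 1.64-fold higher in DKO (log2 difference 0.72, SE 0.19, limma adjusted p = 0.0787; by exact permutation, p = 0.00866). Within a library, the log2 level of Col1a1 minus that of Col1a2 averaged -0.71 ± 0.41 in DKO and -1.01 ± 0.32 in WT (SD, n = 6 each). The difference between groups, 0.31, was smaller than the SD of either group.

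Col3a1, the chain of type III collagen, which forms fine reticular fibres in the sinusoid, spanned 4.86 to 6.07 log2 CPM in DKO livers, with a median of 5.40, against 3.33 to 5.02 and a median of 4.55 in WT livers. All 6 DKO libraries exceeded the WT mean and 4 exceeded every WT library. The log2 difference was 0.98 (SE 0.28, limma adjusted p = 0.0928; by exact permutation, p = 0.0108). Col5a2, its neighbour on chromosome 1 and a chain of type V collagen, which nucleates type I fibrils, had a log2 difference of 0.98 (SE 0.32, adjusted p = 0.126). The other type V chains, Col5a1 and Col5a3, were at 0.54 and 0.44 (adjusted p = 0.0928 and 0.271).

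Col11a2 is a chain of type XI collagen, known from cartilage. It rose in DKO, where it had 0.083 at lowest, 1.81 at the median and 2.30 log2 CPM at highest, against -1.66, -0.87 and 0.63 in WT livers. DKO 3 and DKO 6 lay below WT 3, the highest WT library. The log2 difference was 2.09 (SE 0.48, limma adjusted p = 0.0451). Its WT mean was -0.64 log2 CPM, where the lowest value of the table was -3.26, and its call was lost in 10 of 12 fits with 1 library left out (adjusted p up to 0.101, without DKO 4); it held without WT 3 and without DKO 6. The call was also lost with no mean trend (adjusted p = 0.0611) and with quantile normalization (0.0708). Col27a1, a fibrillar collagen of growing cartilage, went the other way, with a log2 difference of -0.56 (SE 0.24, adjusted p = 0.260) and all 6 DKO libraries below the WT mean.

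The start regions of Col1a2, Col3a1 and Col11a2, and of Sparc, a collagen-binding protein described further on, are shown because these are fibrillar genes with large differences and the 2 called members. They are not all of the largest: no window was at hand for Col1a1, and Col5a2, with a larger difference than Col1a2, is not shown. The sequences are from RefSeq, build GRCm38.p6, 250 bases before to 50 bases after the start of the gene, read 5′ to 3′ on the gene's strand. The capitals mark, on either strand, the CCAAT box, the TATAAA box, the Sp1 core GGGCGG and the SMAD-bound core CAGAC, which do not overlap each other here. The windows are Col1a2 at chr6:4505368-4505667 (+), Col3a1 at chr1:45311288-45311587 (+), Col11a2 at chr17:34038888-34039187 (+) and Sparc at chr11:55420031-55420330 (-).
Col1a2: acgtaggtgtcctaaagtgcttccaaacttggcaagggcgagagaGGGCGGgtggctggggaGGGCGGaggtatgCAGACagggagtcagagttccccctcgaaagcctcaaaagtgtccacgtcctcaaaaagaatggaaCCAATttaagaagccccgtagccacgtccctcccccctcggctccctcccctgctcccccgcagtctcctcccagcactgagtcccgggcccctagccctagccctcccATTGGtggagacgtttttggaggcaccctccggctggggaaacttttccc
Col3a1: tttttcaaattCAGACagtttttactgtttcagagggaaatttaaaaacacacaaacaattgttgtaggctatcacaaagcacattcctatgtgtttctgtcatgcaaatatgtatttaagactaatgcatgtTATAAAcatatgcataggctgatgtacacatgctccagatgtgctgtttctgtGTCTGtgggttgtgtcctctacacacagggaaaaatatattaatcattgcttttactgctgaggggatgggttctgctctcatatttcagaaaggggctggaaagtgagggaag
Col11a2: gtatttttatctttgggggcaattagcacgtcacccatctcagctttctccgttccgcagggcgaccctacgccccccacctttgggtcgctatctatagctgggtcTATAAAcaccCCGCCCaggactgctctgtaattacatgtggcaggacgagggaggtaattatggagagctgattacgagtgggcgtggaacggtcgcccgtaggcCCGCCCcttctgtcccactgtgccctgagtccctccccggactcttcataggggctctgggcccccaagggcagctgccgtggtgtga
Sparc: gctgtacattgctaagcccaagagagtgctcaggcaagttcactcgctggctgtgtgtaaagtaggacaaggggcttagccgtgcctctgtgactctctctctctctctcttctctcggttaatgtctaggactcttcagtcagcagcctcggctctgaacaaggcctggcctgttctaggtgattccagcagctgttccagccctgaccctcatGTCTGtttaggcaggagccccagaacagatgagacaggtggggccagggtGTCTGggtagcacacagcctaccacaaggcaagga
The Col1a2 window holds 2 GGGCGG, 1 CAGAC and 2 CCAAT matches, 1 of them on the other strand just after the start, and 61.0% of its bases are G or C. The Col3a1 window has 37.7% G or C, a TATAAA that begins at base -117 and 2 CAGAC matches. The Col11a2 window has a TATAAA that begins at base -143 and 2 GGGCGG matches on the reverse strand. The Sparc window has CAGAC on the reverse strand at bases -35 and 16. A match describes the letters and does not show that a factor binds there.

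Windows of this kind were at hand for 34 of the 53 members (39 windows, as some genes have more than 1 start). GGGCGG was in 56.4% of the members' windows, in 5 of 6 fibrillar and 8 of 11 basement membrane windows, against 35.7% of all 32851 windows. CAGAC was in 61.5% of the members' windows and 49.6% of all, CCAAT in 33.3% and 37.4%, and TATAAA in 17.9% and 13.6%. TATAAA was in 2 of 6 fibrillar windows and 0 of 11 basement membrane windows. The median G or C share was 59.3% in the members' windows and 52.7% in all.

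**Figure D2:**
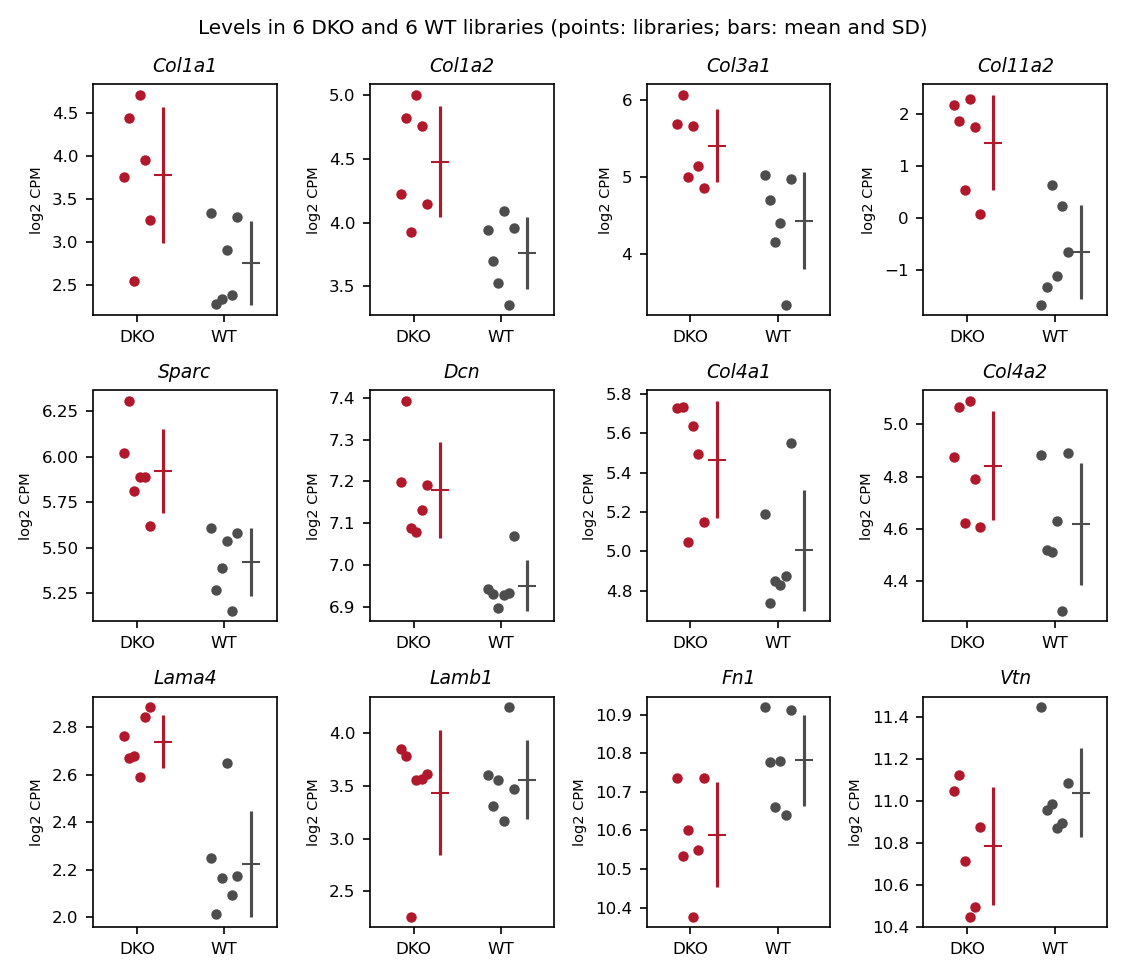
Level in log2 CPM (vertical axes, which start at different values) of 12 members in each of the 6 DKO and 6 WT libraries, with points for libraries and bars for the mean and SD. Sparc and Dcn do not overlap between the groups, Col1a1, Col1a2 and Col3a1 overlap in part, and the means of Vtn and Fn1 (the second not under quantile normalization) are lower in DKO.

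Basement membrane genes differed less. Of the 16 measured, 10 were higher and 6 lower in DKO, with a median log2 difference of 0.18 and a range of -0.40 (Lama5) to 0.51 (Lama4). By limma 0 were called in either direction. At an unadjusted p below 0.05, 3 of the 16 were higher and 0 lower, where 16.4% of all genes passed in either direction. Lama4 encodes a laminin chain of vessel walls. It spanned 2.59 to 2.88 log2 CPM in DKO livers, with a median of 2.72, against 2.01 to 2.65 and a median of 2.17 in WT livers. In all, 5 DKO libraries lay above WT 4, the highest WT library, and the next WT library was at 2.25. The log2 difference was 0.51 (SE 0.14, limma adjusted p = 0.0711; by exact permutation, p = 0.00433), and the adjusted p was 0.0459 without WT 4.

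Lamc1 encodes the gamma chain that most laminins share, and was at 4.46 to 4.83 log2 CPM in DKO livers, with a median of 4.68, against 4.10 to 4.65 and a median of 4.46 in WT livers. The groups overlapped, and the log2 difference was 0.22 (SE 0.11, limma adjusted p = 0.343; by exact permutation, p = 0.0714). Lamb1, a beta chain that pairs with it, was at 2.26 to 3.86 log2 CPM in DKO livers, with a median of 3.59, against 3.17 to 4.25 and a median of 3.52 in WT livers. DKO 3 stood far below the other DKO libraries, and the log2 difference was -0.12 with it (SE 0.25, adjusted p = 0.864; by exact permutation, p = 0.727) and 0.11 without it. The other laminin chains, Lama1, Lama2, Lama3, Lama5, Lamb2, Lamb3 and Lamc3, had log2 differences of -0.40 to 0.34, none called. Nidogen, encoded by Nid1, links laminin to type IV collagen and was 1.34-fold higher in DKO (log2 difference 0.42, SE 0.13, adjusted p = 0.105), while the perlecan gene Hspg2 was at -0.16 (SE 0.19, adjusted p = 0.735).

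Col4a1 and Col4a2 encode the 2 chains of the common type IV collagen. Col4a1 spanned 5.05 to 5.73 log2 CPM in DKO livers, with a median of 5.57, against 4.74 to 5.55 and a median of 4.86 in WT livers. In all, 3 DKO libraries exceeded WT 6, the highest WT library. Its log2 difference was 0.46 (SE 0.16, limma adjusted p = 0.156; by exact permutation, p = 0.0303). Col4a2 spanned 4.61 to 5.09 log2 CPM in DKO livers, with a median of 4.83, against 4.29 to 4.89 and a median of 4.58 in WT livers, with a log2 difference of 0.22 (SE 0.13, limma adjusted p = 0.403; by exact permutation, p = 0.126). The log2 level of Col4a1 minus that of Col4a2 averaged 0.62 ± 0.15 in DKO and 0.39 ± 0.19 in WT (SD, n = 6 each).

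These 2 genes lie head to head on chromosome 8, and their start regions share 78 bases, shown in capitals for both because the pair is read from 1 stretch of DNA in opposite directions. The windows are from RefSeq, build GRCm38.p6, for Col4a1 at chr8:11312777-11313076 (-) and for Col4a2 at chr8:11312555-11312854 (+).
Col4a1: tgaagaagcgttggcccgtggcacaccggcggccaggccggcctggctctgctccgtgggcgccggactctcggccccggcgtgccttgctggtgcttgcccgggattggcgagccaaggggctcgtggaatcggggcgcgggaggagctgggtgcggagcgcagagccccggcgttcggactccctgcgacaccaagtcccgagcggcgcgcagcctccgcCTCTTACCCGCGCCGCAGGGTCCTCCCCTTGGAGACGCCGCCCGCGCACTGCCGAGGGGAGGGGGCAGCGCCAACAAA
Col4a2: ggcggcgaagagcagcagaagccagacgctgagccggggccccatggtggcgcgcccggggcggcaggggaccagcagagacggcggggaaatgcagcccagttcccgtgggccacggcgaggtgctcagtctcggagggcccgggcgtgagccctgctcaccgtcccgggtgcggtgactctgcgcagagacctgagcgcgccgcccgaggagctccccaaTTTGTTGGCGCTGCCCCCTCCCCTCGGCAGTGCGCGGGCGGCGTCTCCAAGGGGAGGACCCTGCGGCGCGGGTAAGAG
The annotated starts lie 21 bases apart, and 74.0% and 73.7% of the bases are G or C. Exons of the 2 genes overlap on opposite strands in GENCODE M21, and no source at hand says whether counting used strand, so their values are uncertain to that extent. The same holds for Col4a3, Col5a1, Col15a1, Eln, Fbn1, Fn1, Lama2, Lama3, Lamc3, Loxl2, Nid1, Tgfb2, Tgfb3 and Thbs1, whose exons overlap genes on the other strand. The less common chains Col4a3 and Col4a5 had log2 differences of -0.14 and -0.028 (adjusted p = 0.932 and 0.985).

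Set side by side, the fibrillar collagens differed more between the groups than the basement membrane genes. The mean log2 CPM of the 8 fibrillar genes was 4.15 ± 0.35 in DKO and 3.37 ± 0.17 in WT, a difference of 0.78, and that of the 16 basement membrane genes was 2.98 ± 0.22 in DKO and 2.85 ± 0.10 in WT, a difference of 0.13 (SD, n = 6 each). Fibrillar minus basement membrane was 0.75 at lowest, 1.23 at the median and 1.48 at highest in DKO libraries, against 0.34, 0.54 and 0.68 in WT libraries. The gap was wider in every DKO library than in any WT library, by 0.65 on average, and by 0.63 without DKO 1. No p is given for these means, because the genes were grouped with results of these data known. The size depends on the list: it was 0.43 when members with a mean under 1 log2 CPM were left out and 0.34 when type VI and fibril-associated collagens were counted with the fibrillar ones. With lists chosen after seeing the data, it was 0.46 without Col11a2 and 0.65 without Col11a2 and Col27a1. The separation of the groups rested in part on Col11a2, a low gene. Without it, the gap of DKO 6 no longer exceeded that of WT 6. Without Col11a2 and Col27a1 the fibrillar mean overlapped, at 3.76 at lowest in DKO and 3.78 at highest in WT. The gap with that list did not overlap, but only narrowly. In DKO 6 the fibrillar and basement membrane means were 4.04 and 3.05, and in WT 6 they were 3.78 and 2.83.

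**Figure D3:**
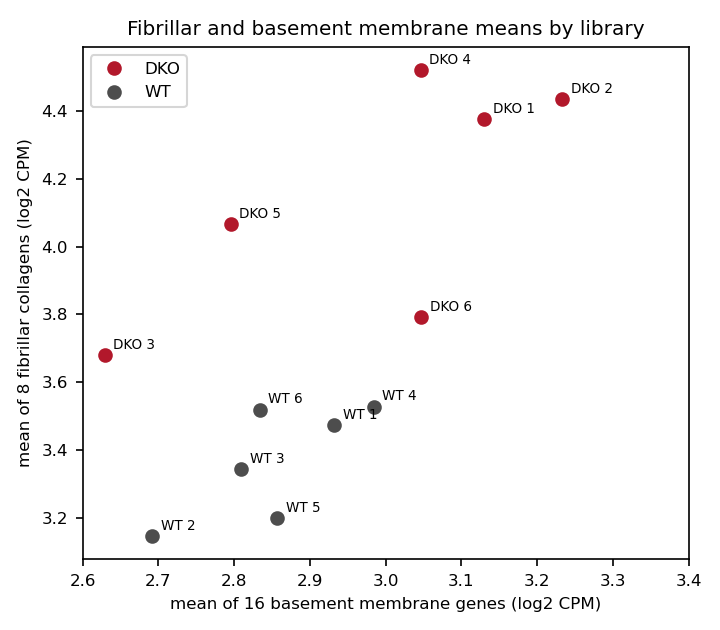
Mean log2 CPM of the 16 basement membrane genes (horizontal axis) and of the 8 fibrillar collagens (vertical axis) in each library, with 1 point per library and both axes starting above 0. DKO libraries lie above WT libraries on the vertical axis, from 3.68 to 4.52 against 3.15 to 3.53, and overlap with them on the horizontal axis, from 2.63 to 3.23 against 2.69 to 2.98. Without Col11a2 and Col27a1 (not drawn) the fibrillar means overlap, at 3.76 at lowest in DKO and 3.78 at highest in WT.

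Of the type VI and fibril-associated collagens, 6 of 7 had higher means in DKO and none was called. The 3 type VI genes, whose beaded filaments connect fibres to cells, were all higher in DKO, with log2 differences of 0.15 to 0.26. Col6a1 spanned 3.11 to 3.91 log2 CPM in DKO livers, with a median of 3.62, against 3.06 to 3.51 and a median of 3.38 in WT livers (log2 difference 0.19, SE 0.15, adjusted p = 0.564). Col14a1, a collagen that sits on the surface of fibrils, spanned 5.93 to 6.34 log2 CPM in DKO livers, with a median of 6.18, against 5.66 to 6.06 and a median of 5.87 in WT livers. In all, 4 DKO libraries lay above all WT libraries (log2 difference 0.32, SE 0.10, adjusted p = 0.103). Of the other fibril-associated chains, Col16a1 and Col12a1 were at 0.41 and 0.09 and Col20a1 at -0.56, none called.

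Col18a1 encodes the basement membrane collagen from which endostatin is cut, and hepatocytes are known to make it. It spanned 9.65 to 9.96 log2 CPM in DKO livers, with a median of 9.84, against 9.76 to 10.16 and a median of 9.93 in WT livers. The log2 difference was -0.12 (SE 0.09, adjusted p = 0.534), and that of Col15a1, the other member of its family, was 0.47 (SE 0.36, adjusted p = 0.564). With quantile normalization that of Col18a1 was -0.00061. Col26a1, and Col7a1, the collagen of the anchoring fibrils of skin, had the lowest log2 differences of all members, -1.29 and -1.45 (SE 0.52 and 0.63, adjusted p = 0.225 and 0.270). Col26a1 was at -3.26 at lowest, -0.70 at the median and 0.043 log2 CPM at highest in DKO livers, against -0.20, 0.21 and 0.82 in WT livers, with DKO 2 at the lowest value of the table. Col13a1, a transmembrane collagen, spanned 1.80 to 2.97 log2 CPM in DKO livers, with a median of 2.57, against 2.17 to 2.91 and a median of 2.48 in WT livers (log2 difference -0.016, SE 0.21, adjusted p = 0.981).

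All 4 matricellular genes and all 3 small proteoglycans had higher means in DKO. Sparc, a secreted protein that binds collagen and steers its assembly, rose. It had 5.62 at lowest, 5.89 at the median and 6.31 log2 CPM at highest in DKO livers, against 5.15, 5.46 and 5.61 in WT livers. The groups did not overlap, though DKO 6 and WT 1 nearly met. The log2 difference was 0.50 (SE 0.12, limma adjusted p = 0.0453; by exact permutation, p = 0.00216, the smallest that divisions of 12 libraries into 6 and 6 allow). Its call was lost in 10 of 12 fits with 1 library left out (adjusted p at most 0.104, reached without WT 5) and held without WT 1 or DKO 6. It was also lost with no mean trend (adjusted p = 0.0748), with library medians subtracted (0.0591) and with quantile normalization (0.0515). Postn, Thbs1 and Thbs2, the other matricellular genes, had log2 differences of 0.29, 0.71 and 0.35 (adjusted p = 0.377, 0.588 and 0.563).

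The small leucine-rich proteoglycans that coat fibrils, Dcn, Lum and Bgn, were all higher in DKO. Dcn, the gene of decorin, spanned 7.08 to 7.39 log2 CPM in DKO livers, with a median of 7.16, against 6.90 to 7.07 and a median of 6.93 in WT livers. The groups did not overlap, although WT 6 came close to the lowest DKO library, DKO 4, and the log2 difference was small at 0.23 (SE 0.068, adjusted p = 0.0999). Lum, which lies next to Dcn on chromosome 10, had a log2 difference of 0.46 (SE 0.15, adjusted p = 0.118) and Bgn 0.17 (SE 0.09, adjusted p = 0.340).

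Of the elastic fibre genes, Fbn1, the gene of fibrillin-1, spanned 1.59 to 2.70 log2 CPM in DKO livers, with a median of 2.38, against 1.17 to 2.21 and a median of 1.91 in WT livers (log2 difference 0.50, SE 0.22, adjusted p = 0.273). Eln, the gene of elastin, had a log2 difference of 0.018 (SE 0.68) and Fbln1 0.53 (SE 0.44), with adjusted p of 0.996 and 0.597. For Eln, DKO 3 stood at the lowest value of the table, -3.26. The other DKO libraries were at -0.039 to 1.51 log2 CPM, and WT libraries at -0.67 to 0.87. The crosslinking enzymes oxidise lysines of collagen and elastin. Loxl1 spanned 0.78 to 1.80 log2 CPM in DKO livers, with a median of 1.30, against 0.18 to 1.32 and a median of 0.48 in WT livers, and its log2 difference was 0.71 (SE 0.25, adjusted p = 0.159). Loxl2 was at 0.36 (SE 0.17, adjusted p = 0.315), and 5 of its 6 DKO libraries lay above all WT libraries. Of these, DKO 1 and DKO 3, at 2.491 and 2.499 log2 CPM, lay barely above WT 3, the highest WT library at 2.485.

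Among the TGF-beta ligands, Tgfb1, the isoform best known for driving fibrosis, spanned 3.08 to 3.96 log2 CPM in DKO livers, with a median of 3.65, against 3.09 to 3.53 and a median of 3.34 in WT livers. In all, 4 DKO libraries lay above and DKO 3 lay below all WT libraries, and the log2 difference was 0.25 (SE 0.15, limma adjusted p = 0.412; by exact permutation, p = 0.113). Tgfb3 spanned 0.24 to 0.97 log2 CPM in DKO livers, with a median of 0.75, against -0.29 to 0.56 and a median of 0.036 in WT livers (log2 difference 0.64, SE 0.24, adjusted p = 0.186). Tgfb2 was at -0.12 (SE 0.48, adjusted p = 0.935).

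Fn1 and Vtn encode fibronectin and vitronectin, adhesion proteins that hepatocytes secrete into plasma, and both had lower means in DKO, Fn1 not under quantile normalization. Fn1 spanned 10.38 to 10.74 log2 CPM in DKO livers, with a median of 10.58, against 10.64 to 10.92 and a median of 10.78 in WT livers. No DKO library reached the WT mean and 4 lay below every WT library, and the DKO level was 87.5% of WT (log2 difference -0.19, SE 0.09, limma adjusted p = 0.294; by exact permutation, p = 0.026). Quantile normalization gave Fn1 a log2 difference of 0.000485 and Vtn one of -0.065 (limma adjusted p = 0.83 for Vtn). Vtn spanned 10.45 to 11.13 log2 CPM in DKO livers, with a median of 10.80, against 10.87 to 11.45 and a median of 10.97 in WT livers, at 83.8% of WT (log2 difference -0.26, SE 0.14, limma adjusted p = 0.374; by exact permutation, p = 0.113).

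Single libraries stood out across members. DKO 2 was the highest DKO library for 24 of the 53 members and DKO 3 the lowest for 19, and WT 1 was the highest WT library for 17 and WT 5 the lowest for 17. In DKO, the fibrillar mean was highest in DKO 4 and lowest in DKO 3.

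**Figure D4:**
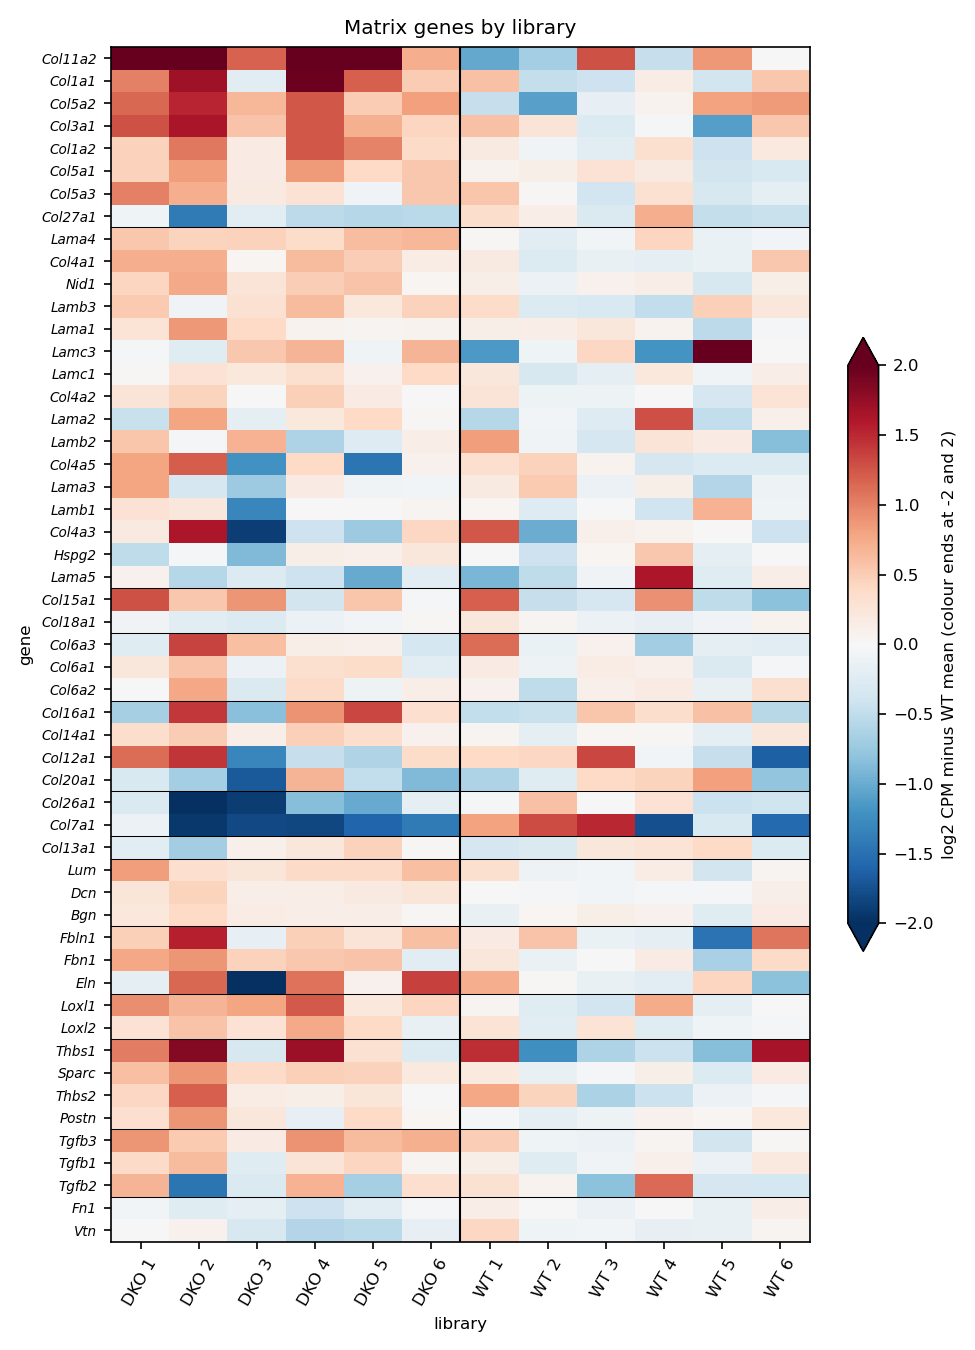
Each member's log2 CPM minus its WT mean (colour, red above and blue below) in the 6 DKO libraries and the 6 WT libraries, with genes ordered as in the plot of fold changes. The upper block of fibrillar collagens is mostly red in DKO, weakest in DKO 3 and DKO 6, and Col7a1 and Col26a1 are blue in all 6 DKO libraries, faintly in some. Col7a1 is also blue in WT 4, WT 5 and WT 6, and Col26a1 faintly so in WT 5 and WT 6.

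Genes that modify and process collagen differed in both directions. Of 20 measured, 13 were higher in DKO with a median log2 difference of 0.16, and 0 rose and 1 fell by limma. At an unadjusted p below 0.05, 1 was higher and 3 were lower, where 7.95% and 8.47% of all genes were. The gene that fell was Bmp1, a protease that removes the C-terminal propeptide of fibrillar procollagens. It spanned 5.75 to 6.06 log2 CPM in DKO livers, with a median of 5.97, against 6.21 to 6.68 and a median of 6.41 in WT livers. The groups did not overlap, and the DKO level was 71.7% of WT (log2 difference -0.48, SE 0.088, limma adjusted p = 0.0163), a call that held without each single library (adjusted p up to 0.0425).

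Of 20 measured matrix receptors 11 were higher and 0 were called by limma, with 3 higher and 1 lower at an unadjusted p below 0.05. Of all genes, 7.95% were higher and 8.47% lower at that p. The closest was Ddr1, a collagen-binding kinase, with 1.00 to 1.77 log2 CPM in DKO livers and -0.47 to 0.87 in WT livers (log2 difference 0.93, SE 0.26, adjusted p = 0.0837). Of 19 measured genes of TGF-beta activation and signalling 12 were higher and 0 were called by limma. At an unadjusted p below 0.05, 1 was higher and 2 were lower, beside the same shares of all genes. The closest was Ltbp1, which tethers latent TGF-beta to the matrix and had a log2 difference of -0.96 (SE 0.24, adjusted p = 0.058).

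Markers of several cell types were higher in DKO beside these genes. In whole liver, more cells of a type and more RNA per cell cannot be told apart. All 19 measured macrophage markers were higher in DKO, 3 of them called by limma (Gpnmb, Ccr2 and Lyz2) and 16 at an unadjusted p below 0.05. Of all genes, 0.619% were called as higher. The summed level of these markers was 586 to 940 CPM in DKO libraries and 420 to 778 in WT libraries. Gpnmb stood at the lowest value of the table, -3.26, in WT 1, WT 4 and WT 6. All 18 endothelial markers were higher, 0 called by limma and 8 at an unadjusted p below 0.05, with sums of 525 to 677 CPM in DKO and 483 to 564 in WT. Of 17 measured stellate cell and fibroblast markers 15 were higher, 0 called by limma and 4 at an unadjusted p below 0.05, with sums of 366 to 455 CPM in DKO and 336 to 401 in WT. The 16 macrophage, 8 endothelial and 4 stellate and fibroblast markers at that p were all higher, where 7.95% of all genes were. Of 6 measured cholangiocyte markers 5 were higher and 2 rose, Cd24a and Spp1, with sums of 51.6 to 82.3 CPM in DKO and 36.7 to 47.2 in WT. These sums include Spp1, at a mean of 5.13 log2 CPM in DKO and 4.26 in WT. They were not computed without Spp1, so their separation is not shown to hold for the other markers. Of the keratins in this list, Krt19 was at a log2 difference of 0.53 (limma adjusted p = 0.598) and Krt7 was lower, at -0.24. Of 4 mesothelial markers 2 were higher and 0 passed limma's test, adjusted or not, with sums of 3.75 to 10.3 CPM in DKO and 3.49 to 9.0 in WT. Of 12 hepatocyte markers 3 were higher, 0 rose and 1 fell (Asgr1), with sums of 70800 to 105000 CPM in DKO and 83600 to 98800 in WT. At an unadjusted p below 0.05 by limma, 0 of them were higher and 2 lower, where 8.47% of all genes were lower. The median log2 difference was 0.69 for macrophage, 0.27 for cholangiocyte, 0.26 for endothelial, 0.15 for mesothelial, 0.13 for stellate and fibroblast and -0.15 for hepatocyte markers. The part of these cell types in the differences of the matrix genes was not tested.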

How the data were processed

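Polyadenylated RNA was sequenced in 12 liver libraries, 6 DKO and 6 WT, grouped by the genotype label. The authors deposited log2 CPM values, filtered and normalized between libraries per the name of the table; what was filtered, added or scaled by is not stated. Per the submitters' processing notes, kallisto 0.46.2, edgeR, limma and the build GRCm39 were used, in unstated roles. One unnamed row was left out, and 20 symbols that had become dates were tested but not named.

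The members and gene lists were chosen with earlier results of these data known. DKO was compared with WT on the deposited log2 values by 2-sided moderated tests with a mean trend (lmFit, eBayes; limma 3.58.1, R 4.3.3), with Benjamini-Hochberg adjustment over 12284 genes and calls at an adjusted p below 0.05. For 12 fixed members a 2-sided exact permutation test over all 924 divisions was added, unadjusted. It used the same libraries, and the members were chosen with earlier results known, so its p-values are no independent support. Role, pathway and cell lists were described by counts and medians, with no test. Values are given for those 12 members, each called member and the member with the smallest p of each role; other members are given by fold change. In the 3 pathway lists called genes are given, or the one with the smallest p; in the 6 cell type lists called genes are named.

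The fit was tested on simulated data for 6 DKO against 6 WT and 12284 genes. Noise was normal and drawn independently for each gene, at the observed means and SDs. Calls were recovered for 26.0% of 50 genes with a true log2 difference of 0.5, for 67.0% of 100 with 1 and for 98.0% of 50 with 2. Of the unchanged genes 5 were called. Shifts of a whole library were not simulated, so these shares need not hold for the real libraries. Depth is unknown, so precision was judged from the spread between libraries. Alternatives were no mean trend, robust limma, log2(CPM + 1), a filter at a mean of 1 log2 CPM, subtracted library medians, a replicate block, quantile normalization, array weights, each library left out and other role lists. Promoter windows were RefSeq sequences of build GRCm38.p6, a build other than that of the table, matched by symbol and searched on both strands. Figures were drawn with matplotlib 3.10.9.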

Additional observations from a re-analysis of the deposited data

Results flagged for a closer look

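Values of the 22 named members, the fibrillar mean, the basement membrane mean and the difference of these means in each group of 6 libraries were searched for a library that stood far from the other 5, by the gap to the nearest other library as a share of the group's range. Of 50 groups checked 3 were flagged, and chance flags about 1 in 20. Lamb1 stood at 2.257 log2 CPM in DKO 3, with the next DKO library at 3.557 and the highest at 3.856. Dcn stood at 7.07 log2 CPM in WT 6, with the next WT library at 6.942 and the lowest at 6.897. Lama4 stood at 2.649 log2 CPM in WT 4, with the next WT library at 2.249 and the lowest at 2.014.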

How the results depend on the processing

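Genes called over the whole table numbered 214, against 138 with no mean trend, 109 with quantile normalization, 356 with array weights and 92 (without WT 5) to 373 (without WT 1) with 1 library left out. Members called higher numbered 2, against 1 with no mean trend, with the filter at 1 log2 CPM, with subtracted medians and with quantile normalization, 4 with array weights, and 0 to 3 with 1 library left out; the cause was not tested. Members called lower were 0 in all of these. The member called with no mean trend was Lama4, and with quantile normalization Dcn. The main fit did not pair the libraries by replicate number. Same-numbered libraries' deviations correlated at -0.077 to 0.287, and 3 of 6 DKO and 4 of 6 WT libraries correlated best with their own number. These values are no ground for leaving the numbers out, and what same-numbered libraries share was not tested. With the replicate block 397 genes and 1 member, Col3a1, were called, and Sparc and Col11a2 were not (adjusted p = 0.0576 and 0.0695). The fibrillar minus basement membrane difference of 0.65 was 0.43 under the filter at 1 log2 CPM, which drops Col11a2 among others, 0.34 with the wider fibrillar list, and 0.59 to 0.73 with 1 library left out. Members with a higher mean numbered 35 to 41 with 1 library left out. Directions reversed for Col13a1 (0.10 with array weights, and -0.11 to 0.12 with 1 library left out), Lamb1 (-0.21 to 0.11 with 1 library left out) and Fn1 (0.000485 with quantile normalization). Over the 22 named members, 394 of 436 alternative values kept their direction and their side of the threshold, 27 lost a call, 6 gained one and 9 reversed. Unknown depth limits the low genes most, Col11a2, Col26a1 and Eln among them.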
